A study of Homo sapiens with 4 samples.

Results

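The genes described are members of the BCL2 family, the proteins that decide whether the outer membrane of mitochondria stays closed or is opened during apoptosis. Of 10 genes listed by symbol, 9 had rows in the deposited abundance table: BCL2L1, MCL1, BAX, BAK1, BAD, BID, BCL2L11, BBC3 and PMAIP1. BIK was not analysed here. These 9 genes were represented by 35 transcripts, out of 11213 gene names and 32551 transcripts in the whole table.

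The study knocked down PHF8, a demethylase of histone H3 and H4 lysines, in K562, a human chronic myelogenous leukaemia line that carries the BCR-ABL1 fusion, and asked how this affects transcription of the fusion gene. There were 2 libraries of K562 cells transduced with lentivirus carrying a hairpin against PHF8 (shPHF8, labelled as PHF8 knockdown) and 2 of cells transduced with a control hairpin (shControl, labelled WT). Cells of both groups were transduced with 5 µg/ml polybrene and selected with 2 µg/ml puromycin after 72 hours, so transduction and selection are common to all 4 libraries. The labels do not say whether the numbers 1 and 2 of the shPHF8 libraries mark replicates or different hairpins, whether the cultures were separate, or whether pools or clones were used. The p-values therefore measure only the spread between these libraries, which may be technical.

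In this pathway, survival proteins such as BCL-xL and MCL-1 hold the pore-forming proteins BAX and BAK in check. The BH3-only proteins carry stress signals to them: through a short helix, the BH3 domain, they occupy the groove of the survival proteins or engage BAX and BAK directly. BCR-ABL1 signalling through STAT5 is known to sustain BCL-xL in this leukaemia, and loss of that signal is known to raise the BH3-only protein BIM.

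The 9 genes were chosen as members of this family, for which the BH3 helix is a known mark, so that they share it is no result. Its coding stretch is shown for the most abundant transcript of each gene that holds it. Each line gives 39 coding bases, 5′ to 3′, from GENCODE release 29 (GRCh38), where all 35 transcripts were found under the same version. Capitals mark the codon of the conserved leucine and, 3 codons further on, the codons of a small residue (glycine, serine or alanine) and of aspartate.
BCL2L1-004: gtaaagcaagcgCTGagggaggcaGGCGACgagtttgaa
MCL1-001: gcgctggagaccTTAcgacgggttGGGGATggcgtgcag
BAX-001: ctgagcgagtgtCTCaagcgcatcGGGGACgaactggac
BAK1-002: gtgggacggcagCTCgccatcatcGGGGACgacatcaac
BAD-001: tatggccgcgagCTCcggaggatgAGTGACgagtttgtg
BID-206: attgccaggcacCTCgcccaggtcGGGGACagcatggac
BCL2L11-001: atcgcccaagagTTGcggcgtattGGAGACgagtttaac
BBC3-003: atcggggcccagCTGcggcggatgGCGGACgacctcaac
PMAIP1-001: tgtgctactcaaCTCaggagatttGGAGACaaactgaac
The genes lie on chromosomes 20 (BCL2L1), 1 (MCL1), 19 (BAX and BBC3), 6 (BAK1), 11 (BAD), 22 (BID), 2 (BCL2L11) and 18 (PMAIP1). The glycine codon precedes aspartate in 7 of the 9 stretches, BAD has a serine codon there and BBC3 an alanine codon. The match was read in frame on the coding strand only, as a leucine codon (CTN, or TTA and also TTG), 3 codons of any kind, a codon of glycine (GGN), of alanine (GCN) or of serine (TCN, or AGT and also AGC), and a codon of aspartate (GAT as well as GAC). Of 11016 genes in the table with a complete coding sequence (median 452 codons), 36.8% hold it, so the match by itself does not set these genes apart. BID holds it at 2 places in its coding sequence, and the one with the glycine codon is shown.

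PHF8 itself was at 6.06 and 6.42 TPM in the shPHF8 libraries, against 25.9 and 22.5 TPM in the shControl libraries, a mean of 25.8% of the shControl mean (limma, Benjamini-Hochberg adjusted p = 0.0643). TPM (a share of the library's transcripts, corrected for transcript length) adds up to 1000000 in each library. It keeps no read number, so the depth of these libraries is unknown. Of the markers listed for K562 and the erythroid lineage, 10 of 10 were measured. They summed to 13792 and 13141 TPM in shPHF8 and to 8712 and 9244 TPM in shControl. The globin genes HBG1, HBG2, HBE1 and HBZ made up most of these sums. Among the 10, GATA1 was lower in both shPHF8 libraries (311 and 307 TPM, against 339 and 343 in shControl), and EPOR overlapped between the groups. The others were higher in both shPHF8 libraries, TAL1 by little (135 and 107 TPM, against 104 and 106 in shControl). Of 10 granulocyte and monocyte markers 4 were measured (55.5 to 57.4 TPM in all in shPHF8, 101 to 117 in shControl), of 8 lymphocyte markers 2 (11.0 to 15.6 TPM in shPHF8, 30.4 to 34.4 in shControl) and of 8 stromal and endothelial markers 2 (2.52 to 3.42 TPM in shPHF8, 9.88 to 13.0 in shControl). No measured marker was at 0 in all libraries, and the other listed markers were not analysed here. The part that these shifts have in the results that follow was not tested. In bulk samples, fewer cells of a type and less RNA per cell cannot be told apart.

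The survival gene BCL2L1 and the pore-forming gene BAX were lower in both shPHF8 libraries than in both shControl libraries, at 0.636 and 0.789 times the shControl level on the log2(TPM + 1) scale. MCL1, BAK1 and PMAIP1 were also lower in both, by smaller amounts, and the BH3-only gene BBC3 was higher in both. BAD, BID and BCL2L11 overlapped between the groups. None of the 9 genes passed limma with Benjamini-Hochberg adjustment over the 10972 genes tested, and neither did any other gene (percent called 0 in both directions). At an unadjusted limma p under 0.05, 2 of 9 genes were lower (22.2%, against a background of 12.1% of all genes tested) and 0 were higher (background 9.90%, or 22.0% for both directions together). The 2 are BCL2L1 and BAX. Groups did not overlap in 6 of 9 genes, or 66.7%, against 55.3% of all genes tested: 5 lower (background 29.3%) and 1 higher (background 26.0%). The median log2 fold change of the 9 genes was -0.14, and that of all genes tested -0.02.

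**Figure D1:**
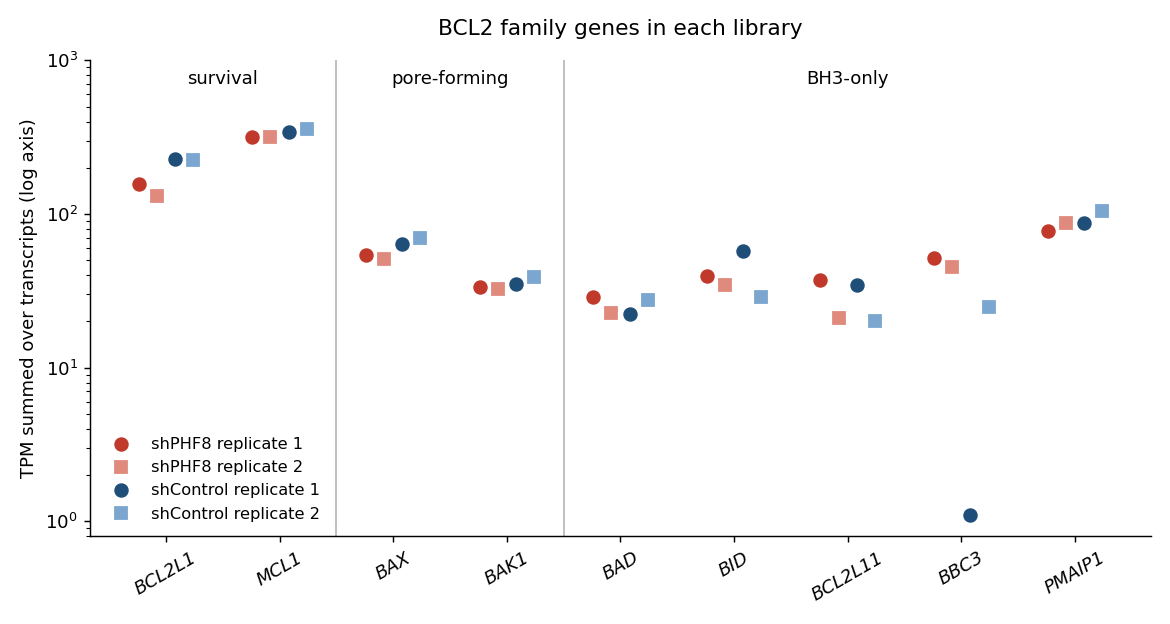
TPM summed over transcripts (log axis) of the 9 BCL2 family genes in each library, shPHF8 in red and shControl in blue, grouped by role. BCL2L1 sits at 132 to 157 TPM in shPHF8 and 226 to 227 TPM in shControl, and the shControl libraries of BBC3 lie far apart, at 1.10 and 24.9 TPM.

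BCL2L1 (ENSG00000171552) encodes BCL-xL, the survival protein that K562 cells express strongly. It was at 157 and 132 TPM in the shPHF8 libraries, against 227 and 226 TPM in the shControl libraries. The shControl libraries were nearly equal and both shPHF8 libraries lay well below them. The means were 144 ± 17.7 TPM in shPHF8 and 226 ± 1.25 TPM in shControl (SD, n = 2 each), so the gap was several times the wider spread. The log2 fold change was -0.65 ± 0.11 (SE), with a 95% interval from -0.95 to -0.36 (limma, unadjusted p = 0.00331, Benjamini-Hochberg adjusted p = 0.0951). The interval corresponds to 0.518 to 0.780 times the shControl level. Its unadjusted p was under 0.05 in all 11 alternative settings, from 0.00325 to 0.0268, while the adjusted p ran from 0.0902 to 0.282 and never passed.

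MCL1 (ENSG00000143384) encodes the short-lived survival protein MCL-1 and was the most abundant of the 9 genes, above 96.4% of all genes tested. It was at 317 and 318 TPM in shPHF8 and at 341 and 358 TPM in shControl. Both shPHF8 libraries lay below both shControl libraries, but by little. On the log2(TPM + 1) scale shPHF8 minus shControl was -0.14 ± 0.06 (SE), with a 95% interval from -0.30 to 0.03 (limma, unadjusted p = 0.0798, adjusted p = 0.283). An MCL1 level from 0.810 to 1.02 times that of shControl is inside that interval. The ratio of BCL2L1 to MCL1, both per length, was 0.495 and 0.414 in shPHF8 and 0.666 and 0.631 in shControl. The ratio was thus lower in both shPHF8 libraries, and it is given as a description with no test.

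BAX (ENSG00000087088) encodes a pore-forming protein that waits in the cytosol until it is activated. It was at 54.3 and 50.8 TPM in shPHF8 and at 64.2 and 69.5 TPM in shControl. The sums of the groups did not overlap, but they do without the minor transcript BAX-005, which was high in shControl replicate 2. The log2 fold change was -0.34 ± 0.10 (SE), with a 95% interval from -0.62 to -0.07 (limma, unadjusted p = 0.0261, adjusted p = 0.179). The unadjusted p stayed under 0.05 in 7 of 11 alternatives. It was 0.0658 without shPHF8 replicate 1, 0.122 without shPHF8 replicate 2, 0.0866 without shControl replicate 2 and 0.0596 with the replicate number as a block. Since BAX and BCL2L1 were both lower, the ratio of their summed TPM differed less than BCL2L1 itself. Summed, BCL2L1 over BAX was 2.89 and 2.59 in shPHF8, against 3.54 and 3.25 in shControl. This did not hold for the most abundant transcripts, BCL2L1-004 over BAX-001. Their mean ratio was 2.67 in shPHF8 and 4.34 in shControl, apart by about the same factor as BCL2L1-004 itself. The shPHF8 ratios were below both shControl ratios, again with no test. BAX-001 leads by the mean over all libraries (26.7 TPM, against 22.1 TPM for BAX-006). In shControl replicate 1 BAX-006 was higher, at 32.0 against 24.7 TPM. With BAX-006 in place of BAX-001 the ratios of the groups overlap, so the gap depends on the BAX transcript chosen.

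BAK1 (ENSG00000030110) encodes BAK, the pore-forming protein that resides in the outer mitochondrial membrane. It was at 33.5 and 32.3 TPM in shPHF8, against 35.2 and 38.9 TPM in shControl. The nearest libraries of the groups, at 33.5 and 35.2 TPM, lay closer together than the shControl libraries did. On the log2(TPM + 1) scale shPHF8 minus shControl was -0.16 ± 0.11 (SE), with a 95% interval from -0.48 to 0.15 (limma, unadjusted p = 0.224, adjusted p = 0.468).

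**Figure D2:**
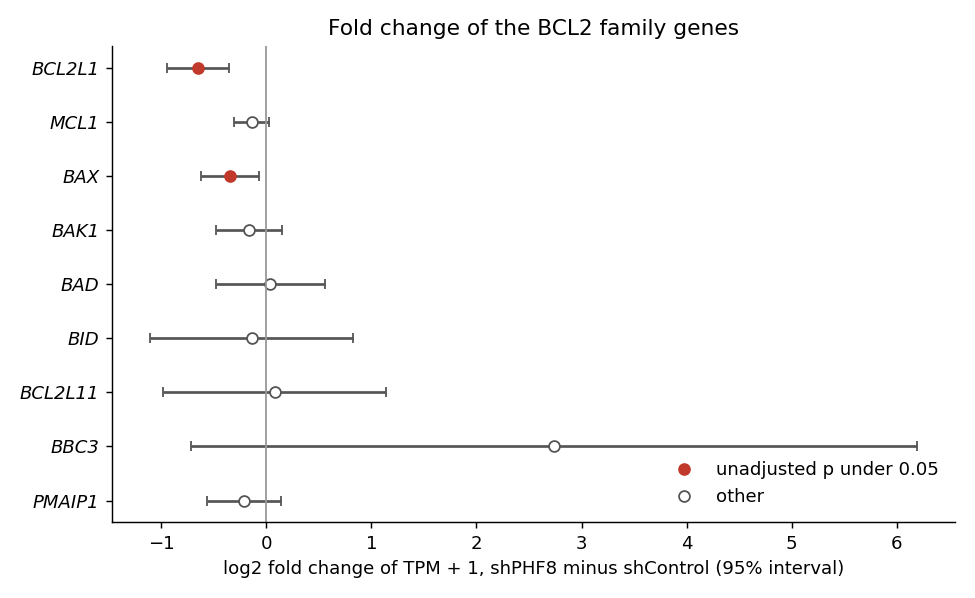
Log2 fold change of TPM + 1, shPHF8 minus shControl, for the 9 genes; points are limma estimates, bars are 95% intervals, and filled points have an unadjusted p under 0.05. The intervals of BCL2L1 (-0.95 to -0.36) and BAX (-0.62 to -0.07) exclude 0, and that of BBC3 runs from -0.71 to 6.19.

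Among the BH3-only genes, BBC3 (ENSG00000105327) encodes PUMA, a protein that binds all the survival proteins and is a known target of p53. It was at 51.5 and 45.2 TPM in shPHF8, against 1.10 and 24.9 TPM in shControl. Both shPHF8 libraries were higher than both shControl libraries, yet the shControl libraries differed 22.5-fold from each other. The means were 48.4 ± 4.46 TPM in shPHF8 and 13.0 ± 16.8 TPM in shControl (SD, n = 2 each). The log2 fold change was 2.74 ± 1.26 (SE), with a 95% interval from -0.71 to 6.19 (limma, unadjusted p = 0.0931, adjusted p = 0.305). Its size depends on which shControl library is used: without shControl replicate 1 it was 0.93 (unadjusted p = 0.0110, adjusted p = 0.188), and without shControl replicate 2 it was 4.55 (unadjusted p = 0.000290, adjusted p = 0.217). It was 2.65 without shPHF8 replicate 1 and 2.83 without shPHF8 replicate 2. A single transcript, BBC3-003, carries the gene in the table, so no other isoform can be set beside it.

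PMAIP1 (ENSG00000141682) encodes NOXA, a small protein that binds MCL-1 and promotes its breakdown. It was at 77.4 and 87.6 TPM in shPHF8 and at 87.7 and 104 TPM in shControl. The upper shPHF8 library and the lower shControl library were nearly equal. On the log2(TPM + 1) scale shPHF8 minus shControl was -0.21 ± 0.13 (SE), with a 95% interval from -0.57 to 0.14 (limma, unadjusted p = 0.177, adjusted p = 0.417). The ratio of MCL1 to PMAIP1 was 4.09 and 3.63 in shPHF8 and 3.89 and 3.44 in shControl, so here the groups overlapped.

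BCL2L11 (ENSG00000153094) encodes BIM, the BH3-only protein known to mediate death when BCR-ABL1 is inhibited. It was at 37.0 and 21.2 TPM in shPHF8 and at 34.7 and 20.2 TPM in shControl. Within each group the library numbered 1 was the higher, and the groups covered nearly the same range. The log2 fold change was 0.08 ± 0.39 (SE), with a 95% interval from -0.99 to 1.14 (limma, unadjusted p = 0.849, adjusted p = 0.925). The interval leaves room for a level from 0.505 to 2.21 times that of shControl.

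BID (ENSG00000015475), which links death receptors to mitochondria after cleavage by caspase-8, was at 39.5 and 34.5 TPM in shPHF8 and at 57.3 and 29.02 TPM in shControl. Both shPHF8 libraries lay between the shControl libraries, which differed 1.97-fold. On the log2(TPM + 1) scale shPHF8 minus shControl was -0.14 ± 0.35 (SE), with a 95% interval from -1.10 to 0.82 (limma, unadjusted p = 0.710, adjusted p = 0.842). It was 0.34 without shControl replicate 1 and -0.62 without shControl replicate 2 (unadjusted p = 0.0298), so the direction turns on which shControl library is used.

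BAD (ENSG00000002330), whose protein is kept inactive by phosphorylation downstream of growth factor signalling, was at 28.8 and 22.8 TPM in shPHF8 and at 22.4 and 27.7 TPM in shControl. Its groups overlapped almost fully. The log2 fold change was 0.04 ± 0.19 (SE), with a 95% interval from -0.48 to 0.56 (limma, unadjusted p = 0.847, adjusted p = 0.924). GPR137 lies on the opposite strand over exons of BAD. The strandedness of the libraries is not given in the sources used here, so reads from the overlapping parts of exons cannot be told apart. The same holds for RNAs antisense to BCL2L1 (ABALON), BCL2L11 (MIR4435-2HG) and BAK1 (GGNBP1), for ADAMTSL4-AS1 on the strand of MCL1, and for MIR3190 and MIR3191 in BBC3. BAK1 also has 2 processed pseudogenes, BAK1P1 and BAK1P2, that could share its reads.

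TPM are per length, so levels can be compared between genes, and their order differed between the groups mainly in the place of BBC3. By group means it ran MCL1, BCL2L1, PMAIP1, BAX, BBC3, BID, BAK1, BCL2L11 and BAD in shPHF8, and MCL1, BCL2L1, PMAIP1, BAX, BID, BAK1, BCL2L11, BAD and BBC3 in shControl. The 4 most abundant genes kept their places. In shPHF8 the libraries of BAX and BBC3 overlapped, as did those of BAK1 and BCL2L11 and those of BCL2L11 and BAD. In shControl the libraries of BID and BAK1, of BCL2L11 and BAD, and of BAD and BBC3 overlapped.

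BCL2L1 is spliced into a long and a short coding form, known as BCL-xL and BCL-xS, and the short form is known to favour death. Of its 9 transcripts in the table, BCL2L1-004 and BCL2L1-001 share one coding sequence of 233 codons, BCL2L1-002 has 170 codons, and the coding end of the other 6 is open in the annotation. The stretches where the forms part are shown 5′ to 3′ because they let the forms be told apart. Capitals mark the 189 bases, or 63 codons, at coding bases 376 to 564 (counted from 1 at the first base of the start codon) that only the long form has, with 18 bases on either side.
BCL2L1-004: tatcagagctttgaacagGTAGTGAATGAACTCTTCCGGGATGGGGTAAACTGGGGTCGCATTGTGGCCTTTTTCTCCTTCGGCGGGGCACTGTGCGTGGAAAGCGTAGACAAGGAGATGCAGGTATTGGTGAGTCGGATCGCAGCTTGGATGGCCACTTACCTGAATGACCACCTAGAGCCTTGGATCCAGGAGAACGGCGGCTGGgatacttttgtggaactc
BCL2L1-002: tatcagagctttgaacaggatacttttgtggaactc
The long form has 702 coding bases and the short form 513.

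Only transcripts with a complete coding end were counted as long or short forms of BCL2L1. So counted, both forms were lower in shPHF8 by about the same factor. The transcripts of 233 codons summed to 99.98 and 80.8 TPM in shPHF8 and to 159.9 and 145.6 TPM in shControl. The transcript of 170 codons was at 8.08 and 9.98 TPM in shPHF8 and at 14.4 and 16.7 TPM in shControl. The ratio of the shPHF8 mean to the shControl mean was 0.592 for the long form, 0.582 for the short form and 0.769 for the transcripts with an open coding end. The long form, so counted, made up 63.8% and 61.4% of BCL2L1 TPM in shPHF8 and 70.3% and 64.6% in shControl. This share leaves out any long form among the transcripts with an open coding end. The long form was 12.4 and 8.10 times as abundant as the short one in shPHF8, against 11.1 and 8.75 times in shControl, and these ratios overlapped.

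Over transcripts, 0 of the 31 member transcripts with a mean of at least 1 TPM passed limma with adjustment over the 30266 tested, where 1 transcript was called (0.00330%). At an unadjusted p under 0.05, 3 of 31 were lower (9.68%, background 5.38%) and 0 were higher (background 4.91%, or 10.3% for both directions together). All 3 belong to BCL2L1. BCL2L1-004 was at 83.1 and 59.4 TPM in shPHF8 and at 115 and 114 TPM in shControl, a log2 fold change of -0.69 ± 0.20 (SE; limma, unadjusted p = 0.0304, adjusted p = 0.412). BCL2L1-001 was at 16.9 and 21.4 TPM in shPHF8 and at 44.9 and 32.1 TPM in shControl, a log2 fold change of -0.96 ± 0.26 (SE; limma, unadjusted p = 0.0244, adjusted p = 0.385). BCL2L1-002, the short form, had a log2 fold change of -0.72 ± 0.23 (SE; limma, unadjusted p = 0.0404, adjusted p = 0.451). In each of the 3 both shPHF8 libraries lay below both shControl libraries. Their unadjusted p was under 0.05 in 8, 7 and 6 of 11 alternatives.

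**Figure D3:**
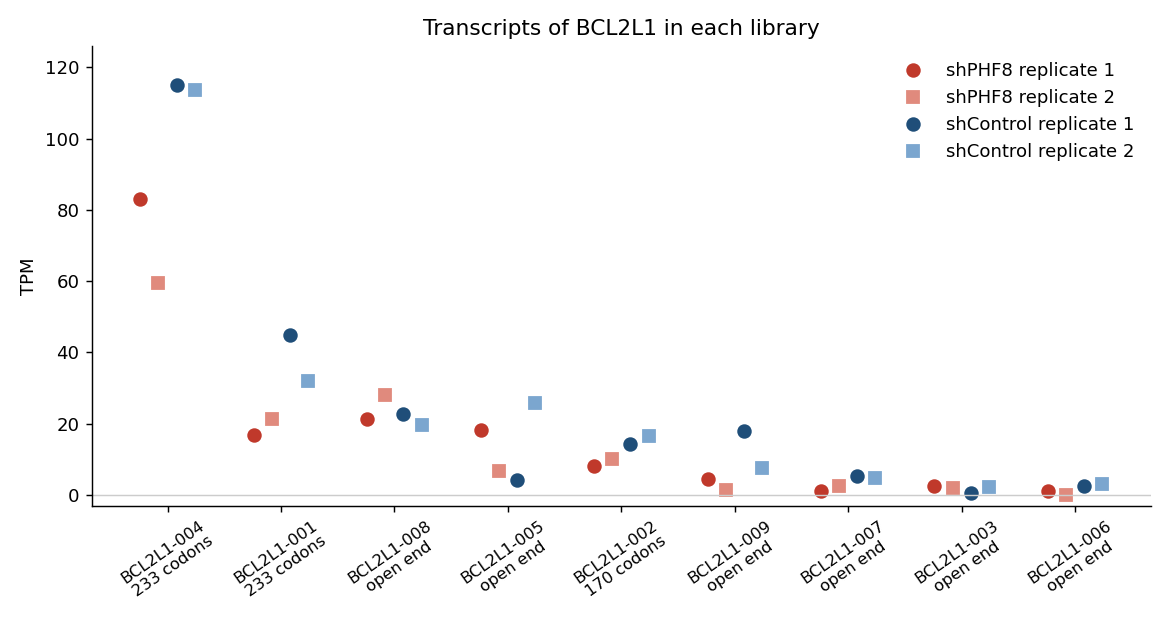
TPM of the 9 BCL2L1 transcripts in each library, shPHF8 in red and shControl in blue, with coding length under each name ("open end" where the annotation leaves the coding end open). BCL2L1-004 lies at 59.4 to 83.1 TPM in shPHF8 and 114 to 115 TPM in shControl, while BCL2L1-008 and BCL2L1-005 overlap between the groups.

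The other 6 BCL2L1 transcripts did not all lie on the same side. BCL2L1-009, BCL2L1-007 and BCL2L1-006 were lower in both shPHF8 libraries, so that 6 of 9 transcripts were apart and lower. BCL2L1-008, the third most abundant, was at 21.3 and 28.2 TPM in shPHF8 and at 22.8 and 19.7 TPM in shControl. BCL2L1-005 was at 18.2 and 6.81 TPM in shPHF8 and at 4.32 and 25.9 TPM in shControl. Both overlapped, and BCL2L1-005 varied several-fold inside each group. BCL2L1-003 was at 2.53 and 1.91 TPM in shPHF8 and at 0.483 and 2.29 TPM in shControl. Over all 31 member transcripts the groups did not overlap in 14, or 45.2%, against 43.2% of all transcripts tested: 3 higher (background 21.0%) and 11 lower (background 22.2%).

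MCL1 was carried almost wholly by MCL1-001, the full-length form of 350 codons, at 314 and 313 TPM in shPHF8 and at 336 and 352 TPM in shControl. It made up 99.2% and 98.3% of MCL1 TPM in shPHF8 and 98.6% and 98.3% in shControl. MCL1-002, a splice form of 271 codons, was at 2.45 and 5.38 TPM in shPHF8 and at 4.83 and 6.07 TPM in shControl. The minor form was at most 1.70% of the gene in any library.

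BAX was carried mainly by BAX-001, of 218 codons, and BAX-006, the form of 192 codons. BAX-001 was at 25.8 and 27.9 TPM in shPHF8 and at 24.7 and 28.2 TPM in shControl, which overlapped. BAX-006 was at 16.2 and 18.6 TPM in shPHF8 and at 32.0 and 21.5 TPM in shControl, which did not, with a log2 fold change of -0.57 ± 0.27 (SE; limma, unadjusted p = 0.107, adjusted p = 0.587). BAX-001 over BAX-006 was 1.60 and 1.499 in shPHF8 and 0.771 and 1.31 in shControl. The ratio was higher in both shPHF8 libraries. BAX-005 stood at 19.8 TPM in shControl replicate 2, where it was 28.4% of BAX, and at 1.41 to 2.75 TPM in the other libraries. No BAX transcript had an unadjusted limma p under 0.05.

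**Figure D4:**
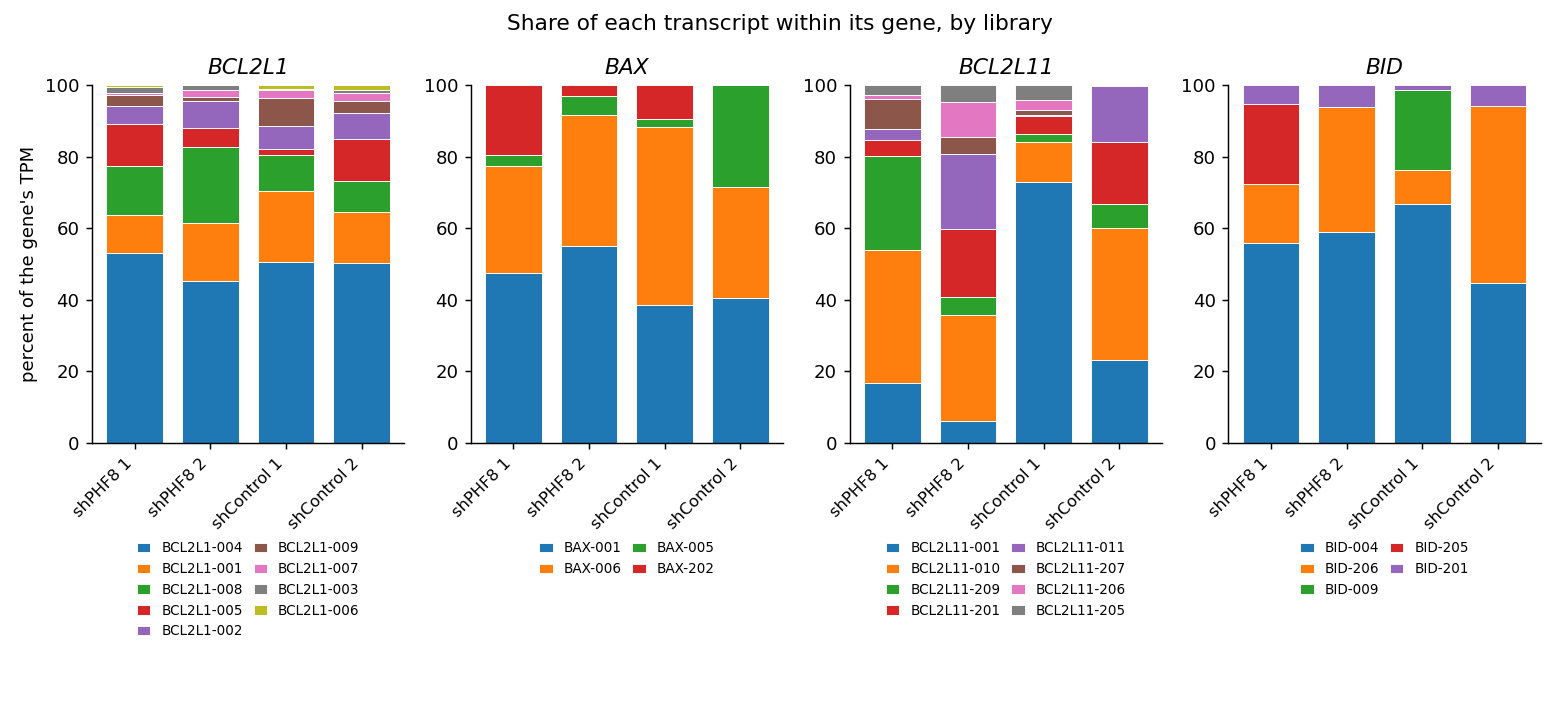
Share of each transcript in the TPM of its gene (percent, stacked to 100) for BCL2L1, BAX, BCL2L11 and BID in each library, shPHF8 left of shControl. BCL2L1-004 keeps 45.2% to 53.0% of its gene in all 4 libraries, while BCL2L11-001 holds 16.8% and 6.21% in shPHF8 and 72.9% and 23.2% in shControl.

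Transcripts of BCL2L11 and BID varied over wider ranges between libraries than the sums of their genes. BCL2L11-001, which encodes the full-length BIM of 198 codons, was at 6.22 and 1.32 TPM in shPHF8 and at 25.3 and 4.69 TPM in shControl. The groups overlapped and each spanned several-fold. Its log2 fold change was -1.58 ± 1.05 (SE; limma, unadjusted p = 0.216, adjusted p = 0.686). BCL2L11-010, of 112 codons, was at 13.7 and 6.25 TPM in shPHF8 and at 3.85 and 7.46 TPM in shControl. It was above BCL2L11-001 in every library but shControl replicate 1. Transcripts that hold the BH3 stretch shown for BCL2L11 made up 29.5% and 41.7% of its TPM in shPHF8 and 77.2% and 39.1% in shControl.

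BID-004, of 99 codons and without the BH3 stretch, was the most abundant BID transcript in 3 of 4 libraries, at 22.1 and 20.4 TPM in shPHF8 and at 38.2 and 13.0 TPM in shControl. BID-206, the form of 195 codons that holds the stretch, was at 6.52 and 12.1 TPM in shPHF8 and at 5.41 and 14.4 TPM in shControl. BID-009, also of 195 codons, was listed at 0 in both shPHF8 libraries, at 12.8 TPM in shControl replicate 1 and at 0.00683 TPM in shControl replicate 2. Transcripts with the stretch made up 16.5% and 34.98% of BID TPM in shPHF8 and 31.8% and 49.6% in shControl. Of all 35 member transcripts, 23 hold the stretch shown for their gene.

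Whether a transcript moved differently from the other transcripts of its gene was tested with limma's diffSplice over 26675 transcripts, of which 605 (2.27%) passed at an adjusted p under 0.05, 1.14% higher and 1.12% lower. None of the 28 member transcripts in it passed, the smallest adjusted p being 0.412. At an unadjusted p under 0.05, 1 of 28 was higher (background 5.38%) and 1 was lower (background 5.50%, or 10.9% together). The higher one was BCL2L1-003, at 1.35 on the log2 scale against the other BCL2L1 transcripts (diffSplice, unadjusted p = 0.0474, adjusted p = 0.449). This transcript was low, at 0.483 to 2.53 TPM. Its value was 0.82 without shControl replicate 1 and 1.87 without shControl replicate 2. The lower one was BCL2L11-001, at -2.34 (diffSplice, unadjusted p = 0.0391, adjusted p = 0.412). Leaving out one library moved that value between -0.91, without shControl replicate 1, and -3.78, without shControl replicate 2, and the log2 fold change of BCL2L11-001 itself between -0.48 and -2.68 without the same libraries. For BCL2L1-002 the same value was -0.07 (diffSplice, unadjusted p = 0.914, adjusted p = 0.998). diffSplice takes 1 estimate of the spread for all transcripts of a gene, and its values depend on how reads shared by isoforms were divided before deposit.

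For other members a single transcript carried nearly all of the gene. PMAIP1-001, of 54 codons, held at least 95.2% of PMAIP1 in every library, and BAD-001, of 168 codons, at least 95.7% of BAD. BAK1-002 was the only BAK1 transcript in the table. BAD-008 was listed at 0 in all 4 libraries. Some minor transcripts of BAX, BCL2L11 and BID were high in 1 library: in shPHF8 replicate 1 BAX-202 held 19.6% of BAX, BCL2L11-209 26.2% of BCL2L11 and BID-205 22.2% of BID.

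Genes around the BCL2 family were described by role, from lists written with earlier results of these data known; none of their genes passed the adjusted test over all genes. Of 13 other BCL2 family genes 7 were tested, and 2 were higher and 0 lower at an unadjusted limma p under 0.05, where 9.90% of all genes tested were higher and 12.1% lower. BCL2L13, a mitochondrial BCL2-like protein that acts as a receptor for mitophagy, was at 83.0 and 65.6 TPM in shPHF8 and at 50.6 and 46.5 TPM in shControl (log2 fold change 0.60 ± 0.15 SE; limma, adjusted p = 0.146). BOK, a relative of BAX and BAK, was at 5.66 and 5.63 TPM in shPHF8 and at 2.92 and 3.71 TPM in shControl (log2 fold change 0.63 ± 0.22 SE; limma, adjusted p = 0.218). Both were higher in both shPHF8 libraries, as were 26.0% of all genes tested. Another 3 of the 7, BMF, BNIP3 and BNIP3L, chosen after their values were seen, were lower in both shPHF8 libraries without reaching that p. Of all genes tested, 29.3% were lower in both. For BNIP3L the gap was small, at 79.4 and 79.1 TPM in shPHF8 and at 83.8 and 79.7 TPM in shControl. BMF, a BH3-only gene, was at 1.95 and 1.42 TPM in shPHF8 and at 2.92 and 4.98 TPM in shControl (log2 fold change -0.86 ± 0.33 SE; limma, unadjusted p = 0.0585, adjusted p = 0.244). The median log2 fold change of the 7 was -0.04, against -0.02 for all genes tested.

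Downstream of the mitochondria, 16 of 18 genes for the apoptosome, caspases and their inhibitors were tested, with 1 higher and 3 lower at an unadjusted p under 0.05 (background 9.90% higher and 12.1% lower) and a median log2 fold change of -0.21. CASP8, the initiator caspase that cleaves BID, was at 27.4 TPM in both shPHF8 libraries and at 38.6 and 48.9 TPM in shControl (log2 fold change -0.65 ± 0.15 SE; limma, adjusted p = 0.136). AIFM1, a mitochondrial flavoprotein released on permeabilization, was at 135 and 137 TPM in shPHF8 and at 189 and 174 TPM in shControl (log2 fold change -0.41 ± 0.08 SE; limma, adjusted p = 0.106). BIRC5, which encodes survivin, was at 40.8 and 65.0 TPM in shPHF8 and at 28.7 and 33.2 TPM in shControl (log2 fold change 0.72 ± 0.26 SE; limma, adjusted p = 0.222). CASP8 and AIFM1 were lower in both shPHF8 libraries, and BIRC5, a member of the inhibitor of apoptosis family, was higher in both.

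Of 10 genes for death receptors and adaptors 7 were tested and 0 had an unadjusted p under 0.05 (background 22.0%), with a median log2 fold change of -0.12. RIPK1, a kinase adaptor of these receptors, had the smallest p of the 7, at 32.3 and 31.3 TPM in shPHF8 and at 38.5 and 36.5 TPM in shControl (limma, unadjusted p = 0.0942, adjusted p = 0.307). All 8 outer membrane partners were tested, 0 were lower and 1 was higher (near the background of 9.90%), MFN1, a mitofusin that joins outer membranes, with a log2 fold change of 0.31 ± 0.10 (SE; limma, adjusted p = 0.190).

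Of 20 symbols for the turnover and phosphorylation of BCL2 proteins 17 were tested, with 3 higher (background 9.90%), 3 lower (background 12.1%) and a median log2 fold change of -0.02. The lower ones are the PIM kinases, which phosphorylate BAD and are known targets of STAT5. PIM2 was at 138 and 129 TPM in shPHF8 and at 259 and 244 TPM in shControl (log2 fold change -0.91 ± 0.08 SE; limma, adjusted p = 0.0634). PIM1 was at 547 and 569 TPM in shPHF8 and at 804 and 769 TPM in shControl (log2 fold change -0.49 ± 0.06 SE; limma, adjusted p = 0.0696). PIM3, chosen after its values were seen, was at 33.2 and 33.8 TPM in shPHF8 and at 44.1 and 49.9 TPM in shControl. The higher ones are AKT1, another kinase of BAD, at 46.6 and 43.4 TPM in shPHF8 and 29.5 and 31.5 TPM in shControl, and a pair of enzymes of MCL-1 turnover. USP9X, a deubiquitinase of MCL-1, was at 101 and 104 TPM in shPHF8 and at 82.4 and 75.6 TPM in shControl. HUWE1, a ubiquitin ligase of MCL-1 chosen after its values were seen, was at 141 and 144 TPM in shPHF8 and at 125 and 107 TPM in shControl. The limma adjusted p was 0.111 for AKT1, 0.136 for USP9X and 0.214 for HUWE1. Other ubiquitin ligase components of the list, chosen after their values were seen, lay on different sides. SKP1 was higher in both shPHF8 libraries, at 201 and 237 TPM against 174 and 184 TPM in shControl (limma, unadjusted p = 0.0553). BTRC was lower in both, at 10.1 and 11.7 TPM in shPHF8 and at 13.7 and 12.3 TPM in shControl. FBXW7 and CUL1 overlapped between the groups.

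Of 15 transcription factors known to act on BCL2 family genes 14 were tested, with 6 higher (background 9.90%), 1 lower (background 12.1%) and a median log2 fold change of 0.24. STAT5B, which activates BCL2L1 and the PIM genes in BCR-ABL1 cells, was at 118 and 122 TPM in shPHF8 and at 204 and 178 TPM in shControl (log2 fold change -0.65 ± 0.10 SE; limma, unadjusted p = 0.00219, adjusted p = 0.0877). STAT5A, its more abundant paralogue, chosen after its values were seen, was at 433 and 392.4 TPM in shPHF8 and at 414 and 376 TPM in shControl, which overlapped (log2 fold change 0.06 ± 0.09 SE; limma, unadjusted p = 0.513, adjusted p = 0.711). STAT3, a relative of both, was at 141 and 148 TPM in shPHF8 and at 100.1 and 86.1 TPM in shControl (log2 fold change 0.63 ± 0.11 SE; limma, adjusted p = 0.0961). TP73, a p53 relative that can activate BBC3, was at 7.20 and 6.47 TPM in shPHF8 and at 1.80 and 1.88 TPM in shControl (log2 fold change 1.46 ± 0.22 SE; limma, adjusted p = 0.0877). EGR1, an immediate early factor, was at 413 and 404 TPM in shPHF8 and at 307 and 278 TPM in shControl (log2 fold change 0.48 ± 0.07 SE; limma, adjusted p = 0.0894). The groups did not overlap for STAT5B, STAT3, TP73 or EGR1, as for 55.3% of all genes tested. DDIT3, E2F1 and JUN, chosen after their values were seen, were the other higher genes.

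**Figure D5:**
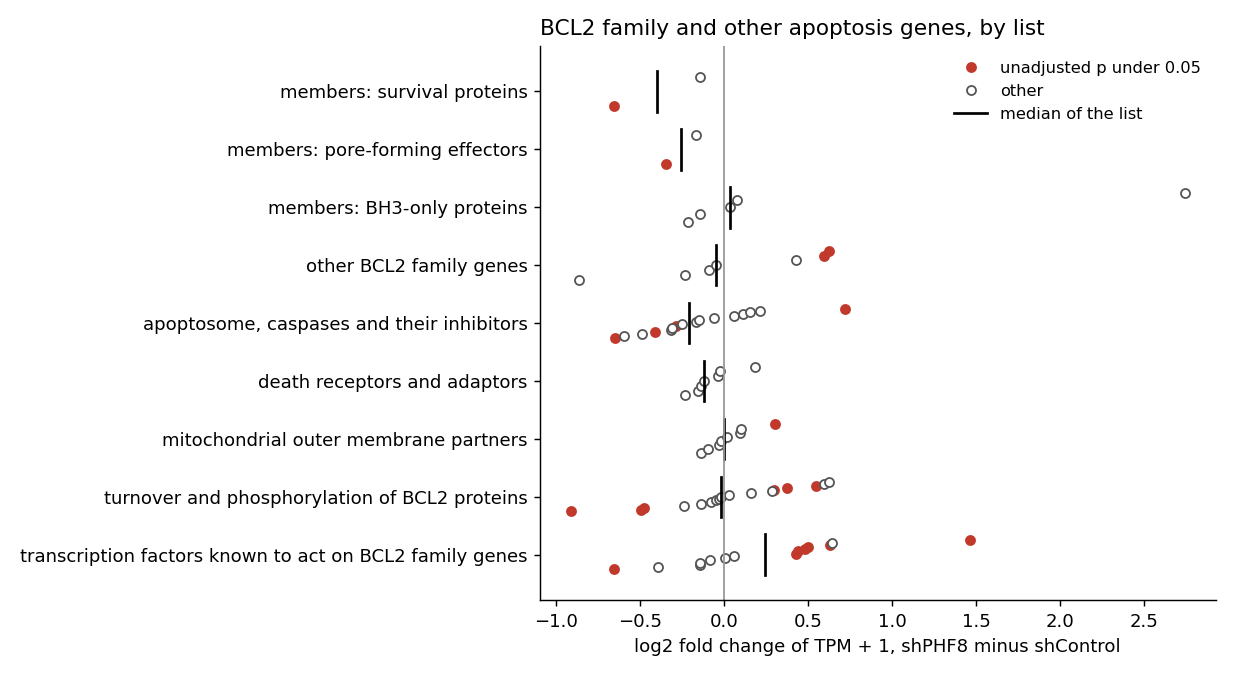
Log2 fold change of TPM + 1, shPHF8 minus shControl, of each tested gene of the 3 role groups of the BCL2 family and of 6 further lists; filled points have an unadjusted limma p under 0.05 and black bars are medians. PIM2 (-0.91) and BMF (-0.86) lie at the low end, BCL2L1 is at -0.65, and BBC3 (2.74) and TP73 (1.46) at the high end.

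The genes whose pattern over the 4 libraries was most like that of BCL2L1, by the root mean square difference of centred log2(TPM + 1) among 10971 other genes, were QDPR (0.0152), PXYLP1 (0.0190) and RAB20 (0.0253). QDPR, for example, was at 20.05 and 17.2 TPM in shPHF8 and at 29.5 and 29.6 TPM in shControl. PXYLP1 was near the filter of 1 TPM, at 0.935 and 0.644 TPM in shPHF8 and at 1.75 and 1.82 TPM in shControl. With 4 libraries this likeness is only a description.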

How the data were processed

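RNA was sequenced from 4 libraries of K562 cells, grouped by the treatment given in the labels. The deposited table lists transcripts and gives, per the file headers, a TPM column for each library; each column sums to 1000000. Another 4 deposited columns carry no unit, are described here as signal, were a constant multiple of TPM within a library and were not used. The submitters' processing notes name HISAT2 2.0.4, StringTie 1.2.3 and the build hg19; what each tool did, the annotation and the strandedness were not given in the sources used here. Because no annotation of hg19 was used, no genome coordinates are given. TPM keep no depth, so only the spread between libraries shows the precision.

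The TPM of a gene name were added up and taken as log2(TPM + 1), a scale that understates changes of low genes. Genes (or transcripts) with a mean of at least 1 TPM were tested with limma 3.58.1 in R 4.3.3 (two-sided, empirical Bayes, variance trended on mean level), with Benjamini-Hochberg adjustment over all of them and a threshold of 0.05; diffSplice compared isoforms. With 2 libraries a group, an exact permutation test gives p = 0.333 at the lowest and was left out. The fits were tested on simulated data. Coding sequences came from GENCODE release 29. Tables and figures used Python 3.11.15, pandas 2.3.3 and matplotlib 3.10.9.

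The members, lists and tests were chosen with earlier results of these data known. Named were all members, PHF8, member transcripts with an unadjusted p under 0.05 or else the most abundant one of a gene, up to 4 genes per list with the smallest p under 0.05 (or the smallest p), and the 3 genes most like BCL2L1; other transcripts and genes were chosen after their values were seen. A gene that this rule names is not reported here. Alternatives were another pseudocount (0.1), no filter or a mean of at least 5 TPM, median-of-ratios scaling, quantile normalization, no trend, the replicate number as a block, and leaving out each library; for ratios, the most abundant transcript in place of the sum.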

Additional observations from a re-analysis of the deposited data

How the results depend on the processing

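No member gene or member transcript passed the adjusted test under any of the 11 alternatives. With quantile normalization 17 genes of the whole table were called higher and 20 lower (0 and 0 as reported), and of transcripts 2 higher and 2 lower, as also with a mean of at least 5 TPM; without the trend, with the replicate block and without any one library 0 transcripts were called higher (1 as reported); the cause was not tested. At an unadjusted p under 0.05, leaving out one library gave 592 to 1118 higher genes, 0 to 1 higher member genes (BBC3, without either shControl library) and 1 to 2 lower ones, 1 to 3 higher and 1 to 4 lower member transcripts, and in isoform use 0 to 2 higher and 0 to 3 lower. The log2 fold change ranged over these from -0.12 to 0.20 for BAD, from -0.62 to 0.34 for BID, from -0.31 to 0.47 for BCL2L11, from -0.094 to 0.21 for BAD-001, from -0.068 to 0.12 for BAX-001, from -0.038 to 1.11 for BCL2L1-003 and from -0.82 to 0.67 for BID-004. The library left alone in its group is then assumed to vary like the others. The member counts from these fits were not set against shares of all genes or transcripts. They therefore do not set the members apart.

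Deviations of same-numbered libraries from their group means were hardly correlated (-0.03 over 10972 genes). This cannot show whether those libraries were handled together. With the replicate block 1 of 9 member genes was lower at an unadjusted limma p under 0.05 in place of 2. Of all 10972 genes tested, 1061 were then lower in place of 1328. Isoform use with that block showed 0 of 28 member transcripts higher and 1 lower. With a mean of at least 5 TPM, 0 of 13 were higher and 0 lower. That filter itself removed BCL2L1-003 (mean 1.80 TPM), the higher one of the main fit. The shares of all transcripts under these settings are not given here. With the most abundant transcript in place of the sum, BCL2L1 over MCL1 averaged 0.227 in shPHF8 and 0.332 in shControl, and BCL2L1 over BAX 2.67 in shPHF8 and 4.34 in shControl. The gap between the groups in BCL2L1 over BAX was then wider than with the sums, but it depends on taking BAX-001 rather than BAX-006. The unknown depth limits all values.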
